A study of Mus musculus with 8 samples.

Results

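The small heat shock protein genes are a family of low-molecular-weight chaperone genes, and 7 of them are described here in brown adipose tissue (BAT): Cryab, Hspb1, Hspb2, Hspb3, Hspb6, Hspb7 and Hspb8. The family was chosen by the measured genotype difference of Cryab, which was lower in Cd36KO than in WT libraries, so the Cryab values of that contrast are given as a description with no test. The other 6 genes belong to the set by family name. All 7 had counts, out of 17367 genes with any count among 31053 gene identifiers. The set was read beside the counts of skeletal muscle genes in each library.

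RNA-seq was run on BAT of C57BL6/J mice, with 4 libraries labelled WT and 4 labelled Cd36KO, all given an age of 8 weeks in the labels and no treatment. Cd36 encodes a scavenger receptor for lipids and vesicles. The labels do not say in which cells Cd36 was deleted. The study describes floxed Cd36 crossed with a Cre driven by Csf1r, which is active in myeloid cells, as well as a germline knockout, and names the macrophage-restricted knockout as the source of the BAT it profiled, in mice of the labelled age by its legend. Its methods give a later age at sacrifice for the floxed cross. The study states biological replicates. The WT libraries carry replicate numbers 1 to 4, and 3 Cd36KO libraries carry 2, 3 and 4. The count column of the other Cd36KO library has no number in its name, unlike the sample titles, and that library is called unnumbered here.

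Small heat shock proteins share an alpha-crystallin domain and form oligomers that hold unfolding proteins until ATP-driven chaperones of the Hsp70 family refold them or hand them to degradation. Cryab (alpha B-crystallin), Hspb2, Hspb3, Hspb6, and Hspb7 are best known from skeletal and cardiac muscle, where they guard the sarcomere and desmin filaments. Hspb1 and Hspb8 are made in many cell types. Hspb8 acts with the co-chaperone Bag3 in chaperone-assisted autophagy. In brown fat, the resident brown adipocytes carry a high load of mitochondria, and the depot lies against skeletal muscle between the shoulder blades.

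The genes lie on chromosomes 4, 5, 7, 9 and 13 of build GRCm38, and all are protein-coding. Cryab (ENSMUSG00000032060, chr9:50751325-50756636, plus strand) and Hspb2 (ENSMUSG00000038086, chr9:50751078-50752354, minus strand) stand head to head. Between the start of Hspb2 and the Cryab transcript that begins at 50752907 lie 552 bases. A longer Cryab transcript, which begins at 50751325, shares 252 exonic bases with Hspb2, which is 30.2% of the exonic bases of Hspb2 and 17.0% of those of Cryab. Because the strand setting of the counting is not given in the sources used here, reads in that stretch cannot be told apart. Hspb1 (ENSMUSG00000004951) is at chr5:135887919-135889563 on the plus strand, and Hspb8 (ENSMUSG00000041548) at chr5:116408491-116422864 on the minus strand. Hspb3 (ENSMUSG00000051456) is at chr13:113662896-113663676 on the minus strand. Hspb6 (ENSMUSG00000036854) is at chr7:30552178-30555443 on the plus strand and shares 122 exonic bases with Proser3 and 3 with Lin37, both on the opposite strand, and 77 with the miRNA gene Gm38670 on its own strand. Hspb7 (ENSMUSG00000006221) is at chr4:141420779-141425311 on the plus strand.

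Promoter sequences are shown for Hspb1, Hspb3 and Hspb6 because heat-inducible genes of this family are known to be driven through heat shock elements, and these are the windows in which a heat shock element was found. The RefSeq promoter table (GRCm38.p6) held 6 windows for 5 of the 7 genes, the exceptions being Cryab and Hspb2. Each line gives the 250 bases before the start, read 5′ to 3′ on the strand of the gene. Hspb1 is chr5:135887669-135887918 (plus), Hspb3 is chr13:113663677-113663926 (minus) and Hspb6 is chr7:30553051-30553300 (plus, the downstream of its 2 starts). Capitals mark the heat shock element (GAANNTTC or TTCNNGAA), the MEF2 motif and the TATA box TATAAA, where present.
Hspb1: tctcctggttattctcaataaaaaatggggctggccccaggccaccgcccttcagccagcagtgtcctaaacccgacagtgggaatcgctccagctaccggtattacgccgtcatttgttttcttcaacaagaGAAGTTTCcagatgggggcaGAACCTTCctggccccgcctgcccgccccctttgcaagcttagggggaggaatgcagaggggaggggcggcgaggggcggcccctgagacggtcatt
Hspb3: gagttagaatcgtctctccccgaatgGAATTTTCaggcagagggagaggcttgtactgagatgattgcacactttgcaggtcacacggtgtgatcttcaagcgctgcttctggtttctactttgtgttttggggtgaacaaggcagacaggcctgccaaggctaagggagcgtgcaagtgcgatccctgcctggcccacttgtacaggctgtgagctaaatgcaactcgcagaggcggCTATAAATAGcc
Hspb6: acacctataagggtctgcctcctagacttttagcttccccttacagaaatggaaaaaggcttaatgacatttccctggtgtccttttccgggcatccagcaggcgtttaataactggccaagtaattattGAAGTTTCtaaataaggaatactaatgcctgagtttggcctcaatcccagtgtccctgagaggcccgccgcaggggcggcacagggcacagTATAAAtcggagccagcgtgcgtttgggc
Hspb1 held 2 heat shock elements, GAAGTTTC and GAACCTTC, which begin 117 and 97 bases before the start. Hspb6 held GAAGTTTC at 120 bases and TATAAA at 29 bases before its downstream start. In Hspb3, GAATTTTC began 224 bases before the start, and the MEF2 motif CTATAAATAG began at 12 bases and overlaps TATAAA. Motifs were sought on both strands. A heat shock element was present in 3 of the 6 windows, against 12.8% of 32851 promoter windows of the same length. The MEF2 motif was in 1 of 6 (2.92% of all windows), TATAAA in 2 (12.4%), the E-box CANNTG in 4 (66.2%), and the E-box CAGCTG (4271 of the 32851 windows) and the CArG box (1.47%) in 0. The windows of Hspb7, Hspb8 and the upstream start of Hspb6 held none of these beyond an E-box. These matches describe letters in the window only.

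Libraries held 2679785 to 4097953 counts and 13368 to 14698 detected genes. The 15 listed brown adipocyte genes had counts in every library, as did the 10 macrophage and 9 endothelial genes, although the labels also name the stromal vascular fraction as the cell type. Cd36 itself ran from 2412 to 3505 normalized counts (counts divided by the DESeq2 size factor) in WT, and from 1926 to 2384 in Cd36KO. All Cd36KO values of Cd36 lay below all WT values, with a log2 fold change of -0.48 (SE 0.16) and a DESeq2 Benjamini-Hochberg adjusted p of 0.0602 over all genes. The study's methods describe male mice, whereas Xist had 772 to 1588 counts in each of the 8 libraries and 4 Y-linked genes held 3 counts in all.

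The libraries differed widely in skeletal muscle RNA, and this is given before the family's values because the set was to be read beside it. The 40 listed skeletal muscle genes, which hold no member of the family, took 3.66%, 0.634%, 0.0504% and 0.548% of counts in WT replicates 1 to 4. They took 0.383% in the unnumbered Cd36KO library and 0.0185%, 0.0186% and 0.106% in Cd36KO replicates 2, 3 and 4. WT replicate 1 was the highest by far, and the groups overlapped (exact two-sided permutation test on log2 shares, p = 0.143). A skeletal muscle score, the mean log2 CPM of the 40 genes, ran from 2.54 to 8.28 in WT and from 0.91 to 5.50 in Cd36KO. White fat markers also moved with genotype, at 3.67 to 5.41 in WT and 2.93 to 3.38 in Cd36KO with no overlap (exact two-sided permutation p = 0.0286, the smallest that 4 against 4 allows), and 6 of these 11 genes, 9 of which had counts, passed the DESeq2 threshold of 0.05, beside 2.95% of 9619 genes. Smooth muscle (p = 0.857) and Schwann cell scores (p = 0.171) overlapped between the groups in the same exact two-sided permutation test, as did the brown adipocyte (p = 0.114), endothelial (p = 0.943) and macrophage scores (p = 0.400). Single genes of these passed the DESeq2 threshold, 3 of 15 brown adipocyte genes and 1 of 10 macrophage genes, beside the same 2.95%. The brown adipocyte score averages genes that moved in opposite directions. Ucp1 had 4235 to 7028 normalized counts in WT and 7938 to 12313 in Cd36KO. Cidea had 7024 to 10154 and 14588 to 18750, and Fabp4 12620 to 21855 and 5538 to 12209, in the same order. The other genes of that list overlapped. Separation in either direction was seen in 10.9% of 5528 genes with at least 50 normalized counts on average.

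Hspb1, a cytosolic chaperone of many tissues, had the highest level per length, with a mean of 491 normalized counts per kilobase of exon over the 8 libraries. Hspb8 followed at 157, Hspb6 at 115 and Cryab at 97.5 normalized counts per kilobase. Hspb2, Hspb7 and Hspb3 were far lower, at 10.2, 6.14 and 2.83. In WT alone Hspb6 had 180.01 ± 159, Hspb8 179 ± 99.2 and Cryab 160.1 ± 101 normalized counts per kilobase (n = 4, SD), and in Cd36KO alone 48.99 ± 38.6, 135 ± 71.8 and 34.8 ± 15.4 in the same order, and the 3 levels in WT lay well within their SDs of each other. Hspb1 was the highest in both. The spread over all libraries was larger than the gaps among Hspb8, Hspb6 and Cryab, and likewise among the 3 lowest. Whether reads cover whole transcripts or their 3′ ends is not given in the sources used here, so the order holds on the per-length scale alone. Of the 4 other listed small heat shock genes, Cryaa, Hspb9 and Odf1 had 0 counts in all 8 libraries and Hspb11 had 71 counts in all.

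The family's make-up differed from library to library. Cryab took 20.02%, 14.1%, 10.2% and 14.8% of the family's counts in WT replicates 1 to 4, and 5.62%, 3.14%, 6.15% and 4.77% in the unnumbered Cd36KO library and replicates 2 to 4. Hspb1 took 22.4%, 31.3%, 47.6% and 28.5% in WT, against 42.4%, 66.7%, 74.3% and 52.0% in Cd36KO. Hspb6 took 43.1% in WT replicate 1, where it was the leading member, and 5.24% in Cd36KO replicate 3. The 7 genes together held 795, 439, 245 and 499 CPM in WT and 398, 237, 321 and 302 CPM in Cd36KO, so their sum overlapped between the groups.

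Cryab, which protects desmin and other filaments, had 435, 181, 80.0 and 251 normalized counts in WT replicates 1 to 4. The unnumbered Cd36KO library had 75.8, and Cd36KO replicates 2, 3 and 4 had 23.0, 62.4 and 45.0. Every Cd36KO library lay below every WT library, as in 3.96% of the 5528 genes with at least 50 normalized counts on average, by a narrow margin at the edge, where WT replicate 3 had 80.0 and the unnumbered Cd36KO library 75.8. WT averaged 237 ± 150 and Cd36KO 51.5 ± 22.8 (n = 4 each, SD), and the log2 fold change was -2.20 (SE 0.59), given with no test. Without WT replicate 1 it was -1.73. In bulk tissue, fewer cells of a type and less RNA per cell cannot be told apart, here and for each gene below.

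**Figure D1:**
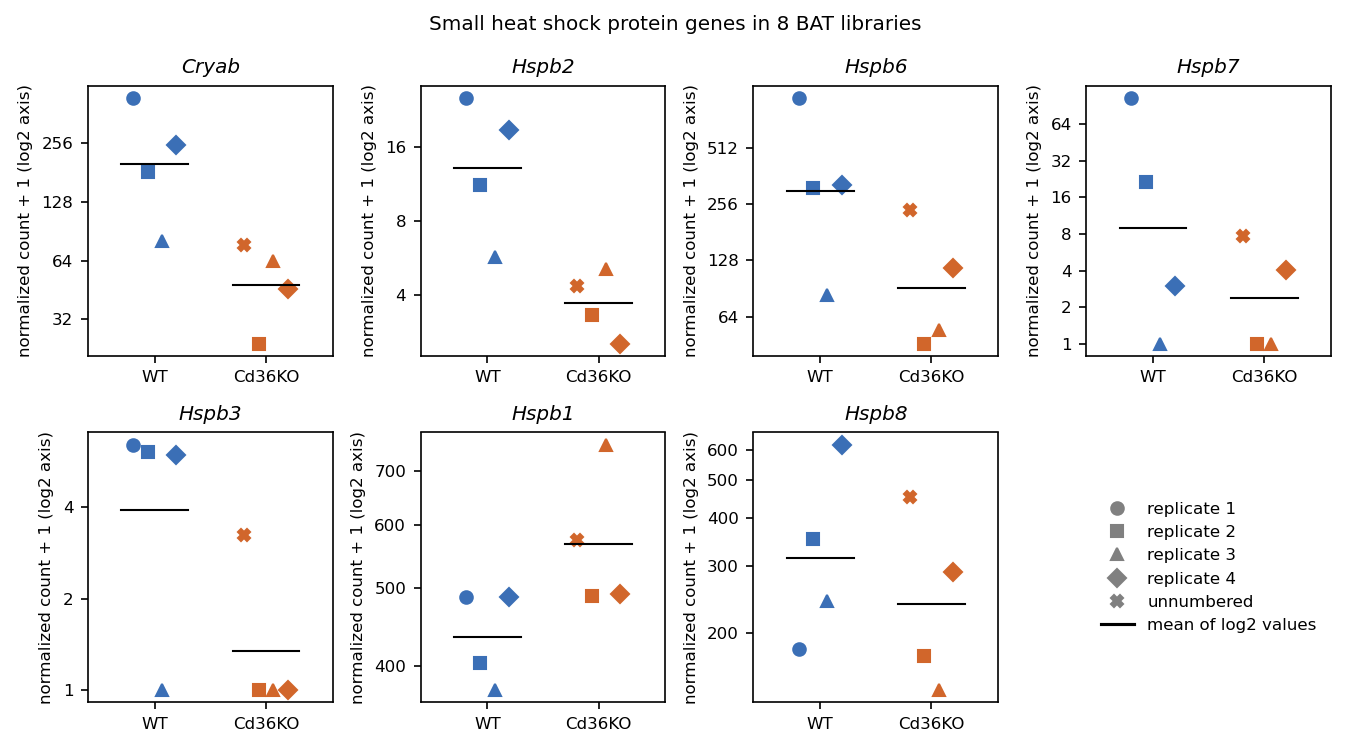
Normalized count + 1 of each small heat shock protein gene by genotype, on log2 axes that differ between panels; symbols give the replicate number and the bar is the mean of log2 values. Cryab and Hspb2 are lower in all 4 Cd36KO libraries than in all 4 WT libraries, Hspb1 is higher in all 4, and the other genes overlap.

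Hspb2, the neighbour of Cryab and a muscle protein that binds the myotonic dystrophy kinase, was scarce. Its raw counts were 27, 12, 4 and 18 in WT and 3, 2, 4 and 2 in Cd36KO. These averaged 14.3 ± 8.62 and 2.82 ± 1.13 after normalization (n = 4 each, SD). All Cd36KO values lay below all WT values, by less than 1 normalized count at the edge, as they did in 2.79% of the 17367 genes with any count. The log2 fold change was -2.38 (SE 0.73, 95% interval -3.82 to -0.94), and the exact two-sided permutation p was 0.0286. DESeq2 gave Hspb2 no adjusted p because its mean count fell under the independent filter. Hspb2 shares exonic bases and a flank with Cryab, so its values are not independent of the gene that chose the set. The count of Cryab was 14.1 to 17.9 times that of Hspb2 in WT libraries and 10 to 29.5 times in Cd36KO libraries.

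Hspb6 (Hsp20), a muscle chaperone and target of cyclic nucleotide-dependent kinases, had 938, 312, 82.3 and 323 normalized counts in WT replicates 1 to 4. The unnumbered Cd36KO library had 237, and Cd36KO replicates 2, 3 and 4 had 44.9, 53.2 and 115. The groups overlapped, because WT replicate 3 lay below 2 of the Cd36KO libraries. WT averaged 414 ± 367 and Cd36KO 113 ± 88.8 (n = 4 each, SD), the log2 fold change was -1.88 (SE 0.82, 95% interval -3.49 to -0.26), the DESeq2 Benjamini-Hochberg adjusted p was 0.220 and the exact two-sided permutation p was 0.143. Without WT replicate 1 the log2 fold change was -1.09.

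Hspb7, which binds filamin C in striated muscle, had 115, 24, 0 and 2 raw counts in WT replicates 1 to 4. It had 6 in the unnumbered Cd36KO library and 0, 0 and 4 in replicates 2 to 4. WT replicate 1 held most of the 151 counts, 3 libraries were at 0, and the groups overlapped (log2 fold change -3.70, SE 2.11; DESeq2 Benjamini-Hochberg adjusted p = 0.399; exact two-sided permutation p = 0.371). Without WT replicate 1 the log2 fold change was -1.62. Hspb3, a muscle partner of Hspb2, had 6, 6, 0 and 5 counts in WT and 2, 0, 0 and 0 in Cd36KO. With 19 counts in all and 4 libraries at 0, Hspb3 is not resolved at this depth, and its groups overlapped (exact two-sided permutation p = 0.143).

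Hspb1 went the other way. It had 487, 402, 372 and 486 normalized counts in WT replicates 1 to 4. The unnumbered Cd36KO library had 573, and Cd36KO replicates 2, 3 and 4 had 488, 754 and 490. All Cd36KO values lay above all WT values, by about 1 normalized count at the edge. Of the 3 members other than Cryab that averaged 50 normalized counts or more, 1 separated in this way, and such separation in either direction was seen in 10.9% of 5528 genes of that level. WT averaged 436 ± 58.7 and Cd36KO 576 ± 125 (n = 4 each, SD). The log2 fold change was 0.40 (SE 0.19, 95% interval 0.029 to 0.77; exact two-sided permutation p = 0.0286). The DESeq2 Benjamini-Hochberg adjusted p of 0.268 over all genes did not pass 0.05, and without Cd36KO replicate 3 the log2 fold change was 0.25.

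Hspb8, the partner of Bag3, had 181, 352, 242 and 618 normalized counts in WT replicates 1 to 4. The unnumbered Cd36KO library had 451, and Cd36KO replicates 2, 3 and 4 had 174, 141 and 288. The ranges overlapped almost throughout. WT averaged 348 ± 193 and Cd36KO 264 ± 140 (n = 4 each, SD), and the log2 fold change was -0.40 (SE 0.53, 95% interval -1.44 to 0.63; DESeq2 Benjamini-Hochberg adjusted p = 0.789; exact two-sided permutation p = 0.486). This interval takes in changes of either sign, with an estimate of 0.028 without WT replicate 4 and -0.79 without the unnumbered Cd36KO library.

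Of the 6 genes other than Cryab, none passed the DESeq2 threshold for genotype, where 2.95% of 9619 genes with an adjusted p did (284 genes, 137 higher and 147 lower). Only 4 of the 6 had an adjusted p. Unadjusted DESeq2 p-values were under 0.05 for 3 of the 6 (Hspb1, Hspb2 and Hspb6), beside 9.76% of 17361 genes. The estimate was positive for Hspb1 and negative for Hspb2 and Hspb6. Hspb2 shares exonic bases with Cryab, so it is not separate from the gene that chose the set. Only Hspb1, Hspb6 and Hspb8 had enough counts to enter the edgeR quasi-likelihood test, which called none of these 3 and 0.143% of 9793 genes overall. The 39 skeletal muscle genes with an adjusted p were all negative, with a median log2 fold change of -2.96 beside -0.0088 over all genes, and 1 of them (Jph1, a junctional membrane protein) passed the threshold.

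The muscle RNA of a library was set beside each gene in a model holding genotype and the skeletal muscle score. Its score coefficient is the log2 change per unit of score at equal genotype. Hspb6 rose with the score by 0.57 (SE 0.053; DESeq2 Benjamini-Hochberg adjusted p = 2.36e-23), Hspb7 by 1.31 (SE 0.26; adjusted p = 6.73e-05, DESeq2) and Cryab by 0.31 (SE 0.080; adjusted p = 0.0143, DESeq2). Thus 3 of the 7 genes passed, beside 0.929% of 14000 genes tested (130 genes, all with a positive coefficient). For Hspb1 the coefficient was 0.015 (SE 0.052, 95% interval -0.088 to 0.12), for Hspb2 0.24 (SE 0.18, and 0.079 without WT replicate 3), for Hspb3 0.77 (SE 0.40) and for Hspb8 0.19 (SE 0.087), none of which passed. The 40 score genes had a median coefficient of 1.13, and 38 passed; they make up the score and serve as its scale only. Among them Ttn, Acta1 and Myh4, the titin, alpha-actin and fast myosin genes with the highest counts, had coefficients of 1.13, 1.22 and 1.24.

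**Figure D2:**
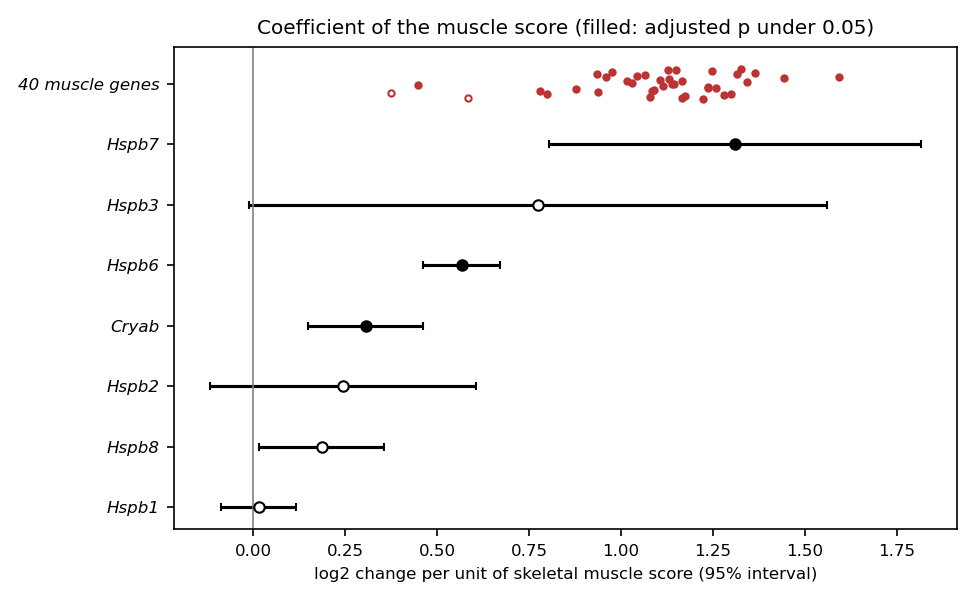
Log2 change per unit of skeletal muscle score at equal genotype, with 95% intervals for the small heat shock protein genes and red points for the 40 muscle genes of the score; filled symbols passed an adjusted p of 0.05. Hspb7 lies among the muscle genes, Hspb6 and Cryab lie lower at 0.57 and 0.31, and Hspb1 lies at 0.015.

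The coefficient of Hspb6 passed whichever library was left out, at 0.53 to 0.59. That of Cryab did not pass without WT replicate 1 (0.25), WT replicate 3 (0.22) or Cd36KO replicate 2 (0.28; DESeq2 adjusted p = 0.445, 0.9996 and 0.0727 in that order). That of Hspb7 did not pass without WT replicate 1 (1.30; DESeq2 adjusted p = 0.165). Hspb8 passed only without WT replicate 1, where its coefficient was 0.33 (DESeq2 adjusted p = 2.08e-05). WT replicate 1 had the highest muscle score and, within WT, the lowest Hspb8.

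With the score in the model, genotype estimates moved closer to 0 for every gene but Hspb1. Cryab stood at -1.12 (SE 0.39), against -2.20 with genotype alone, as a description of the gene that chose the set. Hspb2 stood at -1.502 (95% interval -3.27 to 0.26; DESeq2 Benjamini-Hochberg adjusted p = 0.529), and at -2.31 without WT replicate 3. Hspb6 was at -0.090 (95% interval -0.59 to 0.41; adjusted p = 0.946, DESeq2) and Hspb7 changed sign to 0.59 (95% interval -1.49 to 2.67; adjusted p = 0.901, DESeq2). Hspb1 stood at 0.45 (adjusted p = 0.492, DESeq2), and at 0.23 without WT replicate 3, and Hspb8 was at -0.0043 (95% interval -0.83 to 0.82). None of the 6 genes other than Cryab passed in this model, beside 1.75% of 10296 genes, and Hspb3 had no adjusted p in it. The Cryab estimate with the score ranged from -1.59 to -0.85 as single libraries were left out.

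**Figure D3:**
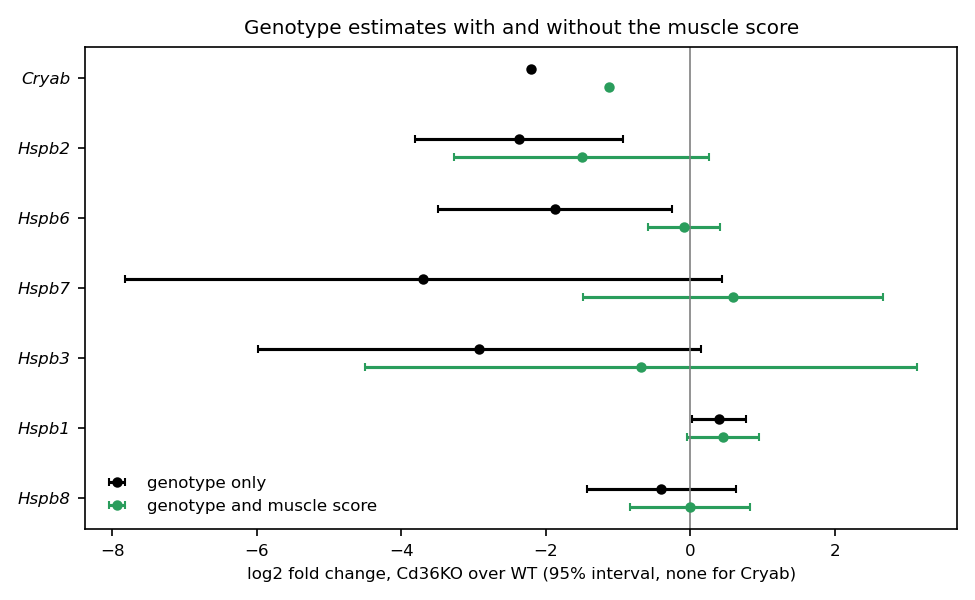
Log2 fold change of Cd36KO over WT with 95% intervals (none for Cryab, which chose the set) for each small heat shock protein gene, from a model with genotype alone (black) and with genotype and muscle score (green). Hspb6 moves from -1.88 to -0.090 and Cryab from -2.20 to -1.12, while Hspb1 is 0.40 and 0.45; the Hspb3 estimate rests on 19 counts.

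Within genotypes, relations of the 7 genes with 4 scores (skeletal muscle, smooth muscle, Schwann cell and white fat) were tested as correlations of deviations from the group means over 8 libraries, 28 relations in all, of which none passed an adjusted 0.05. Hspb6 followed the skeletal muscle score most closely (Pearson r = 0.99, exact two-sided permutation p = 0.00521, adjusted p = 0.0972; Spearman rho = 0.95, p = 0.0104, adjusted p = 0.194), and r was 0.999 without the 2 libraries farthest from the median score. Hspb7 had r = 0.89 (exact permutation p = 0.00694, adjusted p = 0.0972; rho = 0.78, p = 0.0278, adjusted p = 0.194), and 0.83 without those 2. For Cryab r was 0.81 (exact permutation p = 0.0365, adjusted p = 0.255; rho = 0.71, p = 0.0729, adjusted p = 0.292), and 0.98 without those 2. Hspb3 had r = 0.87 (exact permutation p = 0.0208, adjusted p = 0.194; rho = 0.83, p = 0.0208, adjusted p = 0.194), and 0.91 without them. With the same skeletal muscle score, Hspb1 (r = 0.18, rho = 0.33) and Hspb8 (r = 0.41, rho = 0.33) had exact permutation p-values of 0.688 and 0.344, and their r without those 2 libraries was 0.77 and 0.91. Hspb2 had r = 0.60 (rho = 0.43, exact permutation p = 0.160 for r), and 0.71 without them, but 0.19 without WT replicate 3. With the Schwann cell score, Hspb7 had r = 0.78 (exact permutation p = 0.0486, adjusted p = 0.272; rho = 0.79, p = 0.0174, adjusted p = 0.194), and 0.38 without the 2 libraries farthest from the median of that score. Cryab with the Schwann cell score had r = 0.65 (exact permutation p = 0.201, adjusted p = 0.592; rho = 0.74, p = 0.0434, adjusted p = 0.243), and 0.034 without those 2. With the white fat score, r ran from -0.66 for Hspb2 to 0.62 for Hspb8, and no exact permutation p was under 0.05. For Hspb8 these were r = 0.62 (exact permutation p = 0.130, adjusted p = 0.592; rho = 0.69, p = 0.0590, adjusted p = 0.275; r = 0.73 without the 2 farthest libraries), and for Cryab r = -0.55 (exact permutation p = 0.352, adjusted p = 0.592; rho = -0.57, p = 0.181, adjusted p = 0.506; r = -0.42 without the 2 farthest libraries).

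**Figure D4:**
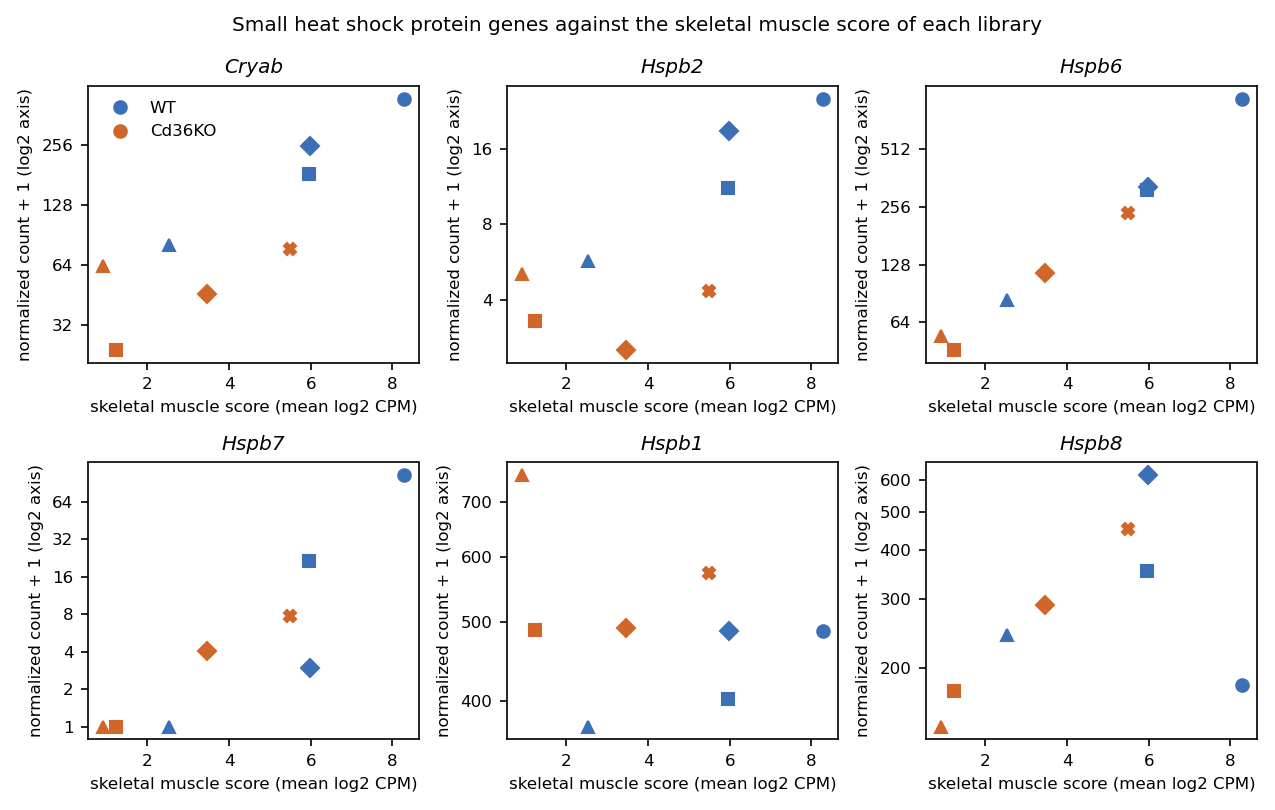
Normalized count + 1 (log2 axes that differ between panels) of 6 small heat shock protein genes against the skeletal muscle score of each library; blue is WT, orange Cd36KO, and circle, square, triangle, diamond and cross are replicates 1, 2, 3, 4 and the unnumbered library. Hspb6 rises with the score in both genotypes (within-genotype r = 0.99), r for Cryab is 0.81, and r for Hspb1 is 0.18.

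Genes whose level ran most like a member over the 8 libraries, both genotypes together, differed between members. They were ranked by Pearson r of log2 values among 5524 genes that averaged 50 normalized counts or more, as a description in libraries that share genotype and muscle content. For Hspb6 they were Mybpc1, Pygm, Mybpc2, Neb and Tnnt1, all genes of muscle fibres, with r between 0.990 and 0.998, and 32 of its first 50 were on the skeletal muscle list. For Cryab they were Tacc2 and Pacsin3 (0.93 each), Drg2, Park7 and Cmya5 (0.92 each), and 16 of its first 50 were on that list. Hspb1 ran most like Guk1 and Lgr6 (0.94 each) and then Csrp2, Ndufs1 and Ovca2 (0.93 each), and Hspb8 like St3gal1 (0.95), Ahsa2 (0.94), Sod3 (0.93), Rasgrf2 and Scamp2 (0.92 each). Neither Hspb1 nor Hspb8 had a gene of the skeletal muscle list among its first 50, and muscle genes outside that list were not counted for any member.

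Genes that work with the family were read from 3 lists. Of 12 co-chaperones and degradation partners, 1 passed the DESeq2 threshold and it was lower in Cd36KO, beside 1.53% of all genes in that direction. It was Synpo2 (myopodin), an actin-binding protein that works with Bag3 in chaperone-assisted autophagy. Its normalized counts were 152, 50.1, 44.7 and 46.5 in WT and 33.4, 12.7, 10.2 and 24.4 in Cd36KO, all lower than in WT (log2 fold change -1.86, SE 0.48; DESeq2 Benjamini-Hochberg adjusted p = 0.0106). With the muscle score in the model, Synpo2 stood at -0.91 (DESeq2 adjusted p = 0.384). The list had 8 positive and 4 negative changes with a median of 0.083. Its 3 genes of highest count, Hspa9, Vcp and Hspa8 (a mitochondrial Hsp70, the p97 segregase and a cytosolic Hsp70), had log2 fold changes of 0.098, -0.12 and 0.28, and Bag3, the partner of Hspb8, -0.16.

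The heat shock response itself, driven by the transcription factor Hsf1, was read from 16 genes, 14 with an adjusted p. None passed for genotype, 11 were positive and 3 negative, and the median log2 fold change was 0.14 within a range of -0.41 to 0.47. The Hsp90 gene Hsp90ab1 averaged 9257 ± 292 normalized counts in WT libraries and 10645 ± 763 in Cd36KO libraries (n = 4 each, SD), with all Cd36KO values above all WT values but a DESeq2 Benjamini-Hochberg adjusted p of 0.381 (log2 fold change 0.20). Hspd1 and Hsp90aa1, at 0.17 and 0.25, overlapped. No gene of this list had a significant score coefficient.

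Of 11 filament and cytoskeletal genes, the clients of these chaperones, 10 had an adjusted p for genotype and none passed. The median log2 fold change was -0.11, and Actb, Vim and Actn4, the genes of highest count, stood at 0.11, -0.091 and -0.13. Des and Flnc, the desmin and filamin C genes, are named here after their values were seen. They were the 2 of 11 whose muscle score coefficient passed, at 0.35 and 0.72 (DESeq2 Benjamini-Hochberg adjusted p = 0.00725 and 0.00392), beside 0.929% of 14000 genes tested. The WT libraries had 426, 143, 47.0 and 116 normalized counts of Des, against 76.9, 55.2, 64.4 and 60.3 in the Cd36KO libraries, a log2 fold change of -1.51 that did not pass (DESeq2 adjusted p = 0.195). Flnc had 91.2, 10.2, 5.88 and 10.9 in WT and 17.8, 1.15, 3.07 and 3.81 in Cd36KO, and its groups overlapped. The muscle marker values stand beside all of these results, and their part in the genotype differences was not tested beyond the model with the score.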

How the data were processed

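RNA-seq of BAT was compared between 4 WT and 4 Cd36KO libraries, grouped by their labels. By the study's account, the authors used bbduk to trim the single-end reads, STAR to align them to mm10 and HTSeq-count to assign them to genes, while the submitters' processing notes name Trimmomatic, HISAT2 and DESeq2. Annotation release, strand setting and molecular identifiers are not given in the sources used here, so overlapping genes are less certain. The table deposited by the authors holds raw read counts. Their other table holds log2 values of the authors, which were checked to be log2(count / size factor + 1) and served only in an alternative test.

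DESeq2 1.42.0 (Wald test, genotype, R 4.3.3) was fitted on all genes with Benjamini-Hochberg adjustment at 0.05, because the study's methods name it, and again with the skeletal muscle score (mean log2 CPM, TMM, prior count 2) as a covariate. Fold changes are unshrunken, Cd36KO over WT. Exact permutation tests ran over 4 against 4 libraries or within genotypes (SciPy 1.17.1). P-values measure the spread between these libraries. Symbols and coordinates came from GENCODE M21 on GRCm38 and are 1-based. Libraries held 2679785 to 4097953 counts, so a gene with a mean of few counts has wide intervals. All pairs of libraries differed by more than sampling noise, with a lowest chi-square per degree of freedom equal to 7.07.

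The genes and lists were chosen with earlier results of these data known. Named genes are the 7 members, Cd36, genes of the partner, heat shock and filament lists that passed or had the 3 highest counts, the 3 highest muscle genes, and the 5 genes most like each member with a mean of at least 20 normalized counts. Other genes were named after their values were seen. Alternatives were edgeR 4.0.16, limma 3.58.1, TMM factors, independent filtering off, a minimum of 10 counts in 4 libraries, another pseudocount, the muscle share as score, the replicate block and leaving out each library. Scripts were tested on simulated data.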

Additional observations from a re-analysis of the deposited data

Results flagged for a closer look

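Of 28 groups of 4 libraries examined for 1 library far from the rest, 3 were flagged, where chance flags about 1 in 20, or 1.4. The log2 normalized count of Hspb3 was 0 in WT replicate 3, while the other WT libraries had 2.57 to 2.68. The log2 normalized count of Hspb3 was 1.69 in the unnumbered Cd36KO library, and the other Cd36KO libraries had 0. Both rest on few counts. The white fat score was 3.67 in WT replicate 1, whereas the other WT libraries had 5.14 to 5.41, and that library also had the highest skeletal muscle score.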

How the results depend on the processing

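DESeq2 called 284 genes for genotype. The count was 14 with edgeR, 171 with independent filtering off, 1 with limma on the authors' log2 values and 180 with the muscle score, and 69 to 507 as single libraries were left out (69 without WT replicate 2, 141 without WT replicate 3, 507 without WT replicate 4, and 113, 132 and 123 without the unnumbered library and Cd36KO replicates 3 and 4). At an unadjusted p under 0.05 there were 1694 genes with DESeq2, 1580 with edgeR and 1383 with limma. Of the 6 genes other than Cryab, 0 were called in the fit as reported, and 0 to 1 as libraries were left out. The 1 was Hspb2 without WT replicate 3 (-2.66, DESeq2 adjusted p = 0.0375). Hspb3 had no adjusted p in any of the fits that left out a library, and Hspb2 and Hspb7 had none in several. With edgeR and limma only Hspb1, Hspb6 and Hspb8 of the 6 could be tested.

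The replicate block could be fitted on the 3 pairs numbered 2, 3 and 4. Same-numbered libraries correlated at -0.13, 0.42 and 0.14 in their deviations, so the numbers were not taken as pairs, and not every library correlated best with its own number. With the replicate block, 219 genes were called and 2 of the 6, Hspb6 (-1.64, DESeq2 adjusted p = 0.000822) and Hspb8 (-0.97, DESeq2 adjusted p = 0.00242), against 262 genes and 0 of the 6 in the same 6 libraries without it, where Hspb8 was at -1.001 (DESeq2 adjusted p = 0.0579) and Hspb6 at -1.75 (DESeq2 adjusted p = 0.261).

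With the muscle score as covariate, 180 genes were called for genotype, 19 to 439 as libraries were left out (19 without WT replicate 3, 439 without WT replicate 1), with 0 of the 6 in each. In these fits too Hspb3 never had an adjusted p, and Hspb2 and Hspb7 lacked one in several. Hspb7 reversed to 0.59 with the score. The following ran through 0 as single libraries were left out: the log2 fold change of Hspb8 (-0.79 to 0.028, positive without WT replicate 4), those with the score of Hspb6 (-0.18 to 0.066), Hspb7 (-0.19 to 1.85) and Hspb8 (-0.47 to 0.29), the score coefficient of Hspb1 (-0.026 to 0.063) and its within-genotype r (-0.14 to 0.83). Of the 7 genes, 4, Cryab among them, had an unadjusted exact permutation p under 0.05 with the skeletal muscle score. The number was 2 to 6 as libraries were left out, with 2 without WT replicate 1, WT replicate 3 or the unnumbered library. None of the 4 passed after adjustment over the 28 relations, and the share over all genes was not computed. The causes were not tested. The Cryab log2 fold change, a description of the gene that chose the set, ran from -2.49 to -1.12 over the alternatives, and with the score from -1.59 to -0.85 as libraries were left out.

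Hspb2, Hspb3 and Hspb7 rest on 72, 19 and 151 counts in all, which limits them at this depth. There are 4 libraries a group, with muscle shares that span from 0.0185% to 3.66%. The group labels do not say in which cells Cd36 was deleted, and white fat markers differ between the groups; no model with the white fat score was fitted.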
